A study of Mus musculus with 8 samples.

Results

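The 10 genes described here encode the 3 TGF-β ligands (Tgfb1, Tgfb2, Tgfb3), their receptors (Tgfbr1, Tgfbr2, Tgfbr3) and 4 SMAD proteins (Smad2, Smad3, Smad4, Smad7). They were chosen by gene symbol, by a rule that names no measured value, and all 10 were found among 55487 gene identifiers in the count table. RNA was sequenced from the stromal vascular fraction (SVF) of subcutaneous MC38 tumors, with 4 libraries labelled Bmal1+/+ and 4 labelled Bmal1-/-. MC38 is a murine colon cancer line, which carried EGFP here and was unaltered at Bmal1, and tumor cells were removed by sorting out the GFP+ cells, so the fraction held whatever GFP- cells remained. Bmal1, also called Arntl, is a core clock transcription factor that binds E-boxes with CLOCK. The deletion in the Bmal1-/- mice was a whole-body one, so it was not limited to any stromal cell type. The age, sex and sampling time of the sequenced mice, and whether any were pooled, are not given in the sources used here. The study's question was how the stromal transcripts of a tumor differ when the host lacks Bmal1.

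TGF-β ligands are secreted in a latent complex and have to be released before they act. The active ligand is bound by the type II receptor TGFBR2, which phosphorylates the type I receptor TGFBR1, while TGFBR3 (betaglycan) is a co-receptor that presents ligand. TGFBR1 phosphorylates SMAD2 and SMAD3, which enter the nucleus with SMAD4, and SMAD7 feeds back to restrain the receptor. In tumor stroma the pathway is best known for driving fibroblasts toward a contractile, matrix-forming state.

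Because BMAL1 acts on DNA, the start-proximal sequence of the members was examined for its binding motif. RefSeq promoter windows of GRCm38.p6, taken as 250 bases before the annotated start, were matched for 5 of the 10 members. They are shown for Tgfb1 and Smad3, the members that passed the test below and had a window, and for Tgfb2, the member whose window held an E-box. Each is written 5′ to 3′ on the strand of its gene, and capitals mark the GC box GGGCGG on either strand in Tgfb1 and Smad3 and the E-box CACGTG in Tgfb2. The windows lie at chr7:25686752-25687001 on the plus strand for Tgfb1, chr9:63757995-63758244 on the minus strand for Smad3 and chr1:186705990-186706239 on the minus strand for Tgfb2.
Tgfb1: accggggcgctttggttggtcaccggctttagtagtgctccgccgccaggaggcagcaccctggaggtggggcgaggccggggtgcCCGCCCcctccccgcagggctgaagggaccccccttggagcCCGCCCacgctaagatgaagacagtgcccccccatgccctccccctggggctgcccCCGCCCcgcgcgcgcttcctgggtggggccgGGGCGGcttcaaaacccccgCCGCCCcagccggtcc
Smad3: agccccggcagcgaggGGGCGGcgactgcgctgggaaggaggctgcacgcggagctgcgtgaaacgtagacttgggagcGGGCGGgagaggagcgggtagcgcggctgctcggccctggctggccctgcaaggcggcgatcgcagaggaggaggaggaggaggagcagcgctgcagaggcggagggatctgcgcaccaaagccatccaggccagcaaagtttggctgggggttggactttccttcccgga
Tgfb2: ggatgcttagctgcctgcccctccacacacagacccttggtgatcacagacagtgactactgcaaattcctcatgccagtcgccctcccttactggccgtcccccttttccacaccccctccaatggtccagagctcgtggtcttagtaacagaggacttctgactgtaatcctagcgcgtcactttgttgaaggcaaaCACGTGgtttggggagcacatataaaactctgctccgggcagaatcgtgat
The Tgfb1 window held 5 GC boxes and the Smad3 window held 2, and neither held the E-box. A window of Tgfbr1, a member that did not pass the test below, also held 2 GC boxes. In Tgfb2 the E-box began 51 bases before the start (position -51). Among all 32851 windows of this length, 6.02% held the E-box and 32.7% held a GC box on either strand. The SMAD-binding motif GTCTG, present in 42.2% of all windows, occurred in the windows of Tgfb2 and Tgfbr2 and in 1 of the 2 windows of Tgfbr1. The D-box TTATGNAA, present in 3.07% of all windows, occurred in none of the member windows. These are matches of letters only, and binding was not measured.

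Several facts of the whole series bear on every value below. Library totals ranged from 14054825 to 18449143 counts. The targeted gene went against its label, with 15 to 45 Bmal1 counts in the Bmal1+/+ libraries and 444 to 524 in those labelled Bmal1-/-, so "Bmal1+/+" and "labelled Bmal1-/-" are used below only as names from the labels, for both groups. Clock output genes that BMAL1 is known to activate were lower in the libraries labelled Bmal1-/-, with Dbp at 3.73 to 6.97 against 67.0 to 113 CPM, Nr1d1 at 1.56 to 4.13 against 38.4 to 52.4 CPM and Per2 at 30.1 to 36.8 against 65.4 to 85.6 CPM. Whether the labels were exchanged, or the Bmal1 reads lie outside the deleted part, was not tested, and an exchange would turn the sign of every fold change below. Sampling time is not given, so a difference in time of day between the groups cannot be told apart from the label. Xist was at 844 to 1095 CPM (counts scaled to library size and TMM factor) in Bmal1+/+ libraries and at no more than 0.749 CPM in the others, and the Y-linked genes Ddx3y, Eif2s3y, Kdm5d and Uty had 0 counts in every Bmal1+/+ library and were counted in all of the others, so sex transcripts and genotype label cannot be told apart. Hepatocyte transcripts were abundant in all 8 libraries of this tumor fraction, with 10 hepatocyte markers together at 103417 to 114267 CPM in the Bmal1+/+ group and at 61941 to 73016 CPM in the other. By contrast, 9 fibroblast markers summed to no more than 72.8 CPM in any library, and the fibroblast activation protein gene Fap had at most 7 counts. The lower hepatocyte sum was not general, since 4 of the 10 markers had a negative log2 fold change (labelled Bmal1-/- against Bmal1+/+). Their median was 0.05, with Alb lowest at -2.10. Whether the libraries hold tumor stroma as labelled was not tested. Replicate 4 of the libraries labelled Bmal1-/- stood apart from its group, with a chi-square per degree of freedom of 141 to 163 against the other 3, which differed among themselves by 19.6 to 43.7. Without it the log2 fold changes of the called members were -1.15 for Tgfb1, -2.24 for Tgfb3, -0.95 for Tgfbr3 and 0.48 for Smad3, and all 4 passed the test described next (largest adjusted p = 0.032, for Smad3, by edgeR's quasi-likelihood test).

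Of the 10 members, 3 were lower in the libraries labelled Bmal1-/- (Tgfb1, Tgfb3 and Tgfbr3), 1 was higher (Smad3) and 5 did not pass the test, while Tgfb2 had too few counts to be tested. The counts were compared by the quasi-likelihood test of edgeR on 14353 genes that passed its filter on low counts, and a gene was called at a Benjamini-Hochberg adjusted p below 0.05. In the same test 31.1% of all genes were called, 16.2% lower and 14.9% higher, so the members are set in a comparison where many genes differed. The median log2 fold change of the 9 tested members was -0.20, against 0.02 over all genes tested. In 4 members the CPM of the groups did not overlap, 3 lower and 1 higher, where 33.4% of all tested genes had no overlap (16.8% lower, 16.7% higher). Values below are in CPM after TMM normalization, in the order of replicates 1 to 4, and every fold change is the libraries labelled Bmal1-/- against Bmal1+/+.

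**Figure D1:**
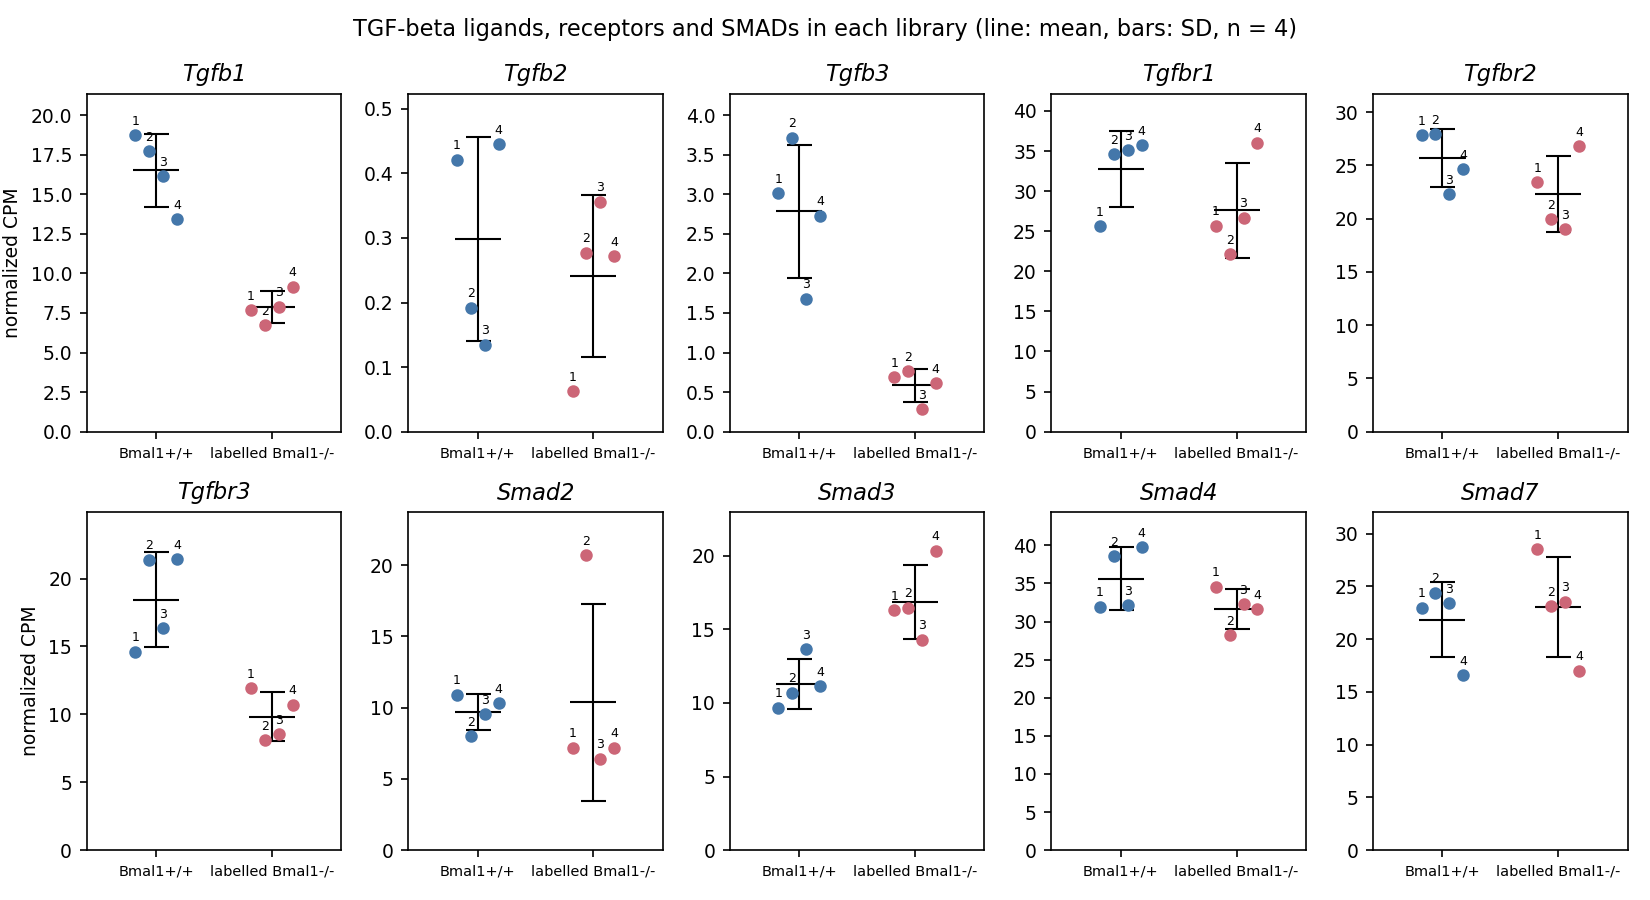
Normalized CPM of the 10 members, 1 panel per gene on a linear axis from 0, with 1 point per library, the mean as a line and the SD as bars (n = 4 in each group). The points of Tgfb1, Tgfb3, Tgfbr3 and Smad3 do not overlap between groups, and 1 point of Smad2 in the group labelled Bmal1-/-, at 20.7 CPM, lies far above the other 3.

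Among the ligands, Tgfb1 and Tgfb3 were both lower in the libraries labelled Bmal1-/-. Tgfb1 (ENSMUSG00000002603, chromosome 7, 25687002 to 25705077, GRCm38), the ligand expressed most widely in immune and stromal cells, was at 18.7, 17.7, 16.1 and 13.4 CPM in the Bmal1+/+ libraries. The libraries labelled Bmal1-/- had 7.68, 6.72, 7.90 and 9.16 CPM. All 4 Bmal1+/+ values lay above the highest value of the other group. The log2 fold change was -1.07 (standard error 0.15, 95% interval -1.40 to -0.74, adjusted p = 6.6e-04 by edgeR's quasi-likelihood test), which is 47.7% of the Bmal1+/+ level. Tgfb1 rested on 97 to 311 counts per library, and its spread between libraries, a CV of 12.8% in the libraries labelled Bmal1-/-, exceeded the 9.26% that counting alone would give.

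Tgfb3 (ENSMUSG00000021253, chromosome 12, 86056745 to 86079041), a ligand often made by mesenchymal cells, was the member with the largest fold change. Its level was 3.01, 3.71, 1.68 and 2.73 CPM in the Bmal1+/+ libraries, against 0.687, 0.762, 0.285 and 0.611 CPM in those labelled Bmal1-/-. The lowest Bmal1+/+ library was above the highest of the other group. The log2 fold change of Tgfb3 was -2.23 (standard error 0.35, 95% interval -3.00 to -1.46, adjusted p = 0.0013 by edgeR's quasi-likelihood test), to 21.4% of the Bmal1+/+ level. The value rested on few counts, 25 to 58 in Bmal1+/+ libraries and 4 to 11 in the others, where counting error alone gives a CV of 33.8%. The authors' use of strand in counting is not stated, and the annotated exons of Tgfb3 overlap those of the predicted genes Gm37804 and Gm48008 on the opposite strand, so their reads cannot be told apart.

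Tgfb2 (ENSMUSG00000039239, chromosome 1, 186622792 to 186705989) was barely counted, with 2 to 8 counts in Bmal1+/+ libraries and 1 to 5 in those labelled Bmal1-/-. The levels were 0.421, 0.192, 0.134 and 0.445 CPM against 0.0624, 0.277, 0.356 and 0.271 CPM, and the groups overlapped. A difference in Tgfb2 was not detectable at this depth (log2 fold change -0.32, adjusted p = 0.76 by edgeR's quasi-likelihood test without the filter on low counts). Its exons also overlap an antisense gene, Gm29491.

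**Figure D2:**
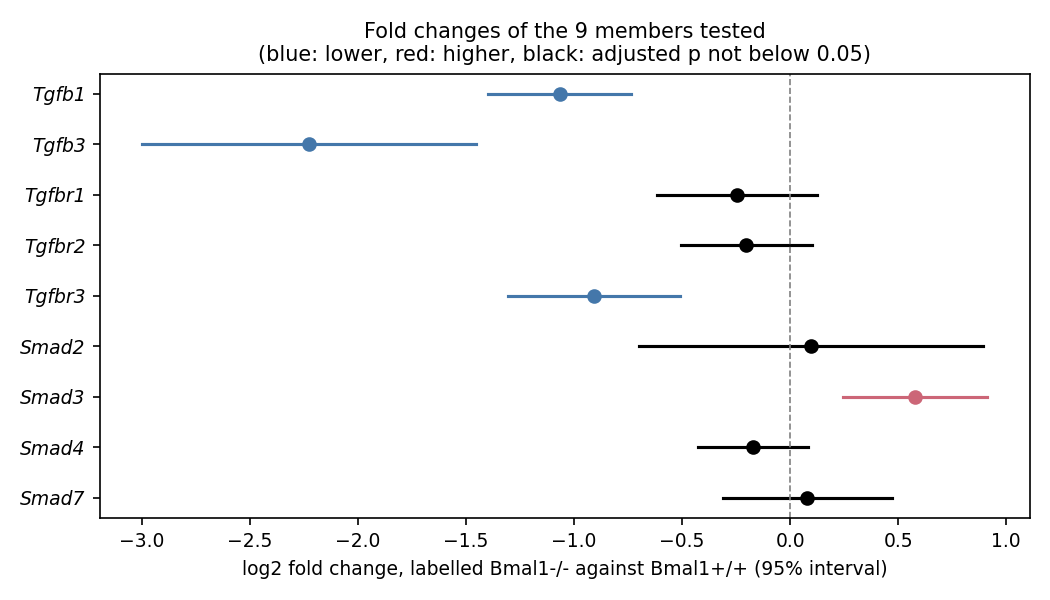
Log2 fold change of the 9 tested members (horizontal axis, 0 marked by a dashed line) with its 95% interval, in blue where lower, red where higher and black where the adjusted p was not below 0.05. The intervals of Tgfb1, Tgfb3 and Tgfbr3 lie wholly below 0 and that of Smad3 wholly above, and the interval of Smad2 is the widest of the SMADs, from -0.70 to 0.89.

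Of the receptors, the co-receptor gene passed the test and the genes of both signaling receptors did not. Tgfbr3 (ENSMUSG00000029287, chromosome 5, 107106570 to 107289629) was at 14.6, 21.4, 16.3 and 21.4 CPM in Bmal1+/+ libraries. In the libraries labelled Bmal1-/- it was at 11.9, 8.10, 8.54 and 10.7 CPM, and the groups did not overlap, although the nearest libraries, at 14.6 and 11.9 CPM, were close. Its log2 fold change was -0.91 (standard error 0.18, 95% interval -1.30 to -0.51, adjusted p = 0.0043 by edgeR's quasi-likelihood test), or 53.3% of the Bmal1+/+ level. Exons of Tgfbr3 overlap those of a predicted gene on the same strand, Gm43422, so the split of reads between them is uncertain.

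Tgfbr1 (ENSMUSG00000007613, chromosome 4, 47353222 to 47414931), the type I receptor gene, had 25.6, 34.6, 35.1 and 35.7 CPM in Bmal1+/+ libraries and 25.7, 22.2, 26.7 and 36.0 CPM in those labelled Bmal1-/-. The groups overlapped across nearly their whole range, with replicate 1 of Bmal1+/+ below its group and replicate 4 of the other above its own. The log2 fold change of Tgfbr1 was -0.25 (95% interval -0.62 to 0.13, adjusted p = 0.29 by edgeR's quasi-likelihood test). Tgfbr2 (ENSMUSG00000032440, chromosome 9, 116084293 to 116175360), the type II receptor gene, had 27.8, 27.9, 22.3 and 24.6 CPM against 23.4, 19.9, 19.0 and 26.8 CPM, and again the groups overlapped. For Tgfbr2 the log2 fold change was -0.20 (95% interval -0.50 to 0.10, adjusted p = 0.28 by edgeR's quasi-likelihood test). Both intervals still allow a decrease of the size of their lower bounds.

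Within the SMADs, Smad3 was higher, and Smad2, Smad4 and Smad7 did not pass the test. Smad3 (ENSMUSG00000032402, chromosome 9, 63646767 to 63757994), which binds DNA directly as a receptor-activated SMAD, was at 9.69, 10.7, 13.6 and 11.1 CPM in Bmal1+/+ libraries. Where the label was Bmal1-/- it reached 16.3, 16.5, 14.3 and 20.4 CPM, and the lowest of these was just above the highest Bmal1+/+ library. Smad3 rose by 0.58 on the log2 scale (standard error 0.15, 95% interval 0.25 to 0.91, adjusted p = 0.016 by edgeR's quasi-likelihood test), to 149% of the Bmal1+/+ level. It was the 1 member called higher.

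Smad2 (ENSMUSG00000024563, chromosome 18, 76241580 to 76310963), the other SMAD that TGF-β receptors phosphorylate, had 10.9, 8.0, 9.54 and 10.3 CPM in Bmal1+/+ libraries. In the group labelled Bmal1-/- it had 7.18, 20.7, 6.40 and 7.19 CPM, so that 3 libraries lay below every Bmal1+/+ value and replicate 2 lay above all of them. The CV of that group was 66.5%, where counting error gives 8.10%. Over all libraries the log2 fold change of Smad2 was 0.10 (95% interval -0.70 to 0.89, adjusted p = 0.86 by edgeR's quasi-likelihood test). Without replicate 2 it was -0.48 (adjusted p = 0.056 by the same test), so both the sign and the size turned on 1 library.

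Smad4 (ENSMUSG00000024515, chromosome 18, 73639009 to 73703780), the shared partner of receptor-activated SMADs, had 32.0, 38.6, 32.2 and 39.8 CPM against 34.6, 28.2, 32.2 and 31.6 CPM. The groups overlapped, with a log2 fold change of -0.17 (95% interval -0.42 to 0.08, adjusted p = 0.29 by edgeR's quasi-likelihood test). Smad7 (ENSMUSG00000025880, chromosome 18, 75367529 to 75395935), the inhibitory SMAD and itself a target of the pathway, had 23.0, 24.4, 23.4 and 16.6 CPM against 28.5, 23.1, 23.6 and 17.0 CPM. In both groups replicate 4 was the lowest and the other libraries overlapped, and the log2 fold change was 0.08 (95% interval -0.31 to 0.47, adjusted p = 0.76 by edgeR's quasi-likelihood test).

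Levels of different genes were compared by FPKM, which the authors scaled to exon length and library size. Smad4 was the highest member in both groups, at 6.16 ± 0.590 FPKM (SD, n = 4) in Bmal1+/+ libraries and 5.58 ± 0.478 FPKM (SD, n = 4) in the others. In Bmal1+/+ libraries the order of mean levels was Smad4, Tgfbr1 (3.55 FPKM), Tgfb1 (2.86 FPKM), Smad7 (2.80 FPKM), Tgfbr2 (2.50 FPKM), Tgfbr3 (2.33 FPKM), Smad3 (1.95 FPKM), Smad2 (0.915 FPKM), Tgfb3 (0.811 FPKM) and Tgfb2 (0.0324 FPKM). Neighbours in this order had overlapping ranges except that Smad4 stood above Tgfbr1, Smad3 above Smad2 and Tgfb3 above Tgfb2. In the libraries labelled Bmal1-/- the order was Smad4, Tgfbr1 (3.04 FPKM), Smad7 (3.02 FPKM), Smad3 (2.96 FPKM), Tgfbr2 (2.21 FPKM), Tgfb1 (1.39 FPKM), Tgfbr3 (1.27 FPKM), Smad2 (1.00 FPKM), Tgfb3 (0.175 FPKM) and Tgfb2 (0.0267 FPKM). There the ranges were apart between Smad4 and Tgfbr1, Tgfbr2 and Tgfb1, Smad2 and Tgfb3, and Tgfb3 and Tgfb2.

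**Figure D3:**
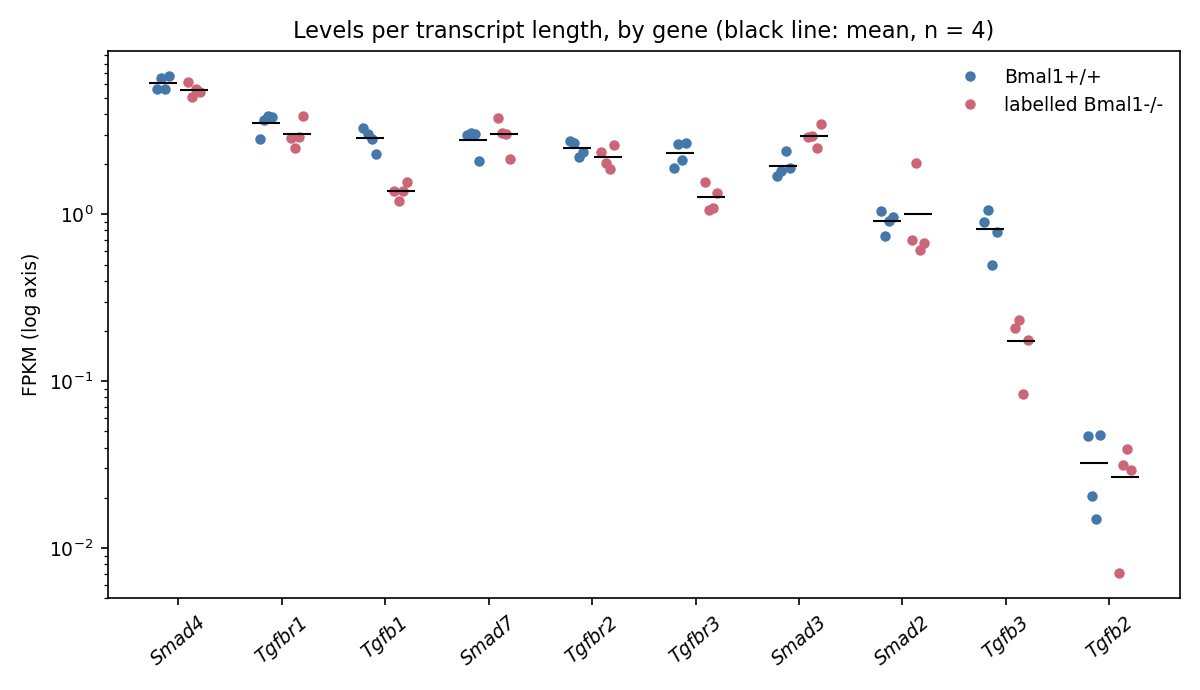
FPKM of each member on a log axis, ordered by level, with 1 point per library and the mean as a black line (n = 4 in each group). Smad4 is the highest and Tgfb2 the lowest in both groups, and Tgfb1 moves from a mean of 2.86 to 1.39 FPKM while Smad3 moves from 1.95 to 2.96 FPKM.

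Ratios of FPKM within a library, given as descriptions with no test, show how the composition of the pathway differed. The 3 ligand genes summed to 3.12 to 4.24 FPKM in Bmal1+/+ libraries and to 1.47 to 1.78 FPKM in those labelled Bmal1-/-, and Tgfb1 made up 73.3% to 84.7% of that sum against 82.2% to 91.8%, so the sums did not overlap and the shares did. Smad3 stood at 0.516 to 0.843 times the level of Tgfb1 in Bmal1+/+ libraries and at 1.8 to 2.44 times its level in the others, with no overlap. That separation adds nothing to the single genes, since both were already apart in FPKM, in opposite directions. The co-receptor gene relative to the type II receptor gene (Tgfbr3 to Tgfbr2) ranged from 0.683 to 1.13 against 0.519 to 0.661, which are close but apart. Type I to type II receptor (Tgfbr1 to Tgfbr2) ranged from 1.02 to 1.75 against 1.22 to 1.56, within the same span. Smad3 to Smad2 ranged from 1.63 to 2.61 against 1.46 to 5.18, where the lowest value, 1.46, was replicate 2 of the libraries labelled Bmal1-/-.

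The genes whose pattern over the 8 libraries was most like a member were listed for 1 ligand, 1 receptor and 1 SMAD by Pearson's r of log2(CPM + 1), among the 8159 genes whose mean reached 10 CPM. These r values are descriptions over libraries that share 2 labels and their depth. For Tgfb1 they were Mfsd14a (r = 0.988), H2-Q1 (r = 0.987) and H2-K1 (r = 0.985), the last a classical MHC class I gene. For Tgfbr2 they were Tsr1 (r = 0.967), 2510009E07Rik (r = 0.959) and Rsu1 (r = 0.919). Smad7 was most like Aldh2 (r = 0.912), Coq5 (r = 0.911) and Pfdn2 (r = 0.909).

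The other genes of the TGF-β superfamily were read from 7 lists holding 99 genes, of which 81 could be tested. Of these, 30 were lower in the libraries labelled Bmal1-/-, 8 were higher and 43 did not pass the test, a called share of 46.9% against 31.1% over all genes. Their median log2 fold change was -0.38, against 0.02 over all genes tested. With the criterion of the study's methods, a log2 fold change beyond 1 in either direction at a raw p below 0.05, 18 were lower and 5 were higher, where 8.71% and 5.41% of all tested genes met it. Adjusted p-values in the paragraphs on these lists are from edgeR's quasi-likelihood test over all genes tested. Exons of Thbs1, Eng, Zfyve9, Nedd4l, Cdkn1a, Bmp5, Fst and Hamp2 overlap a gene on the opposite strand, whose reads cannot be told apart without strand.

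**Figure D4:**
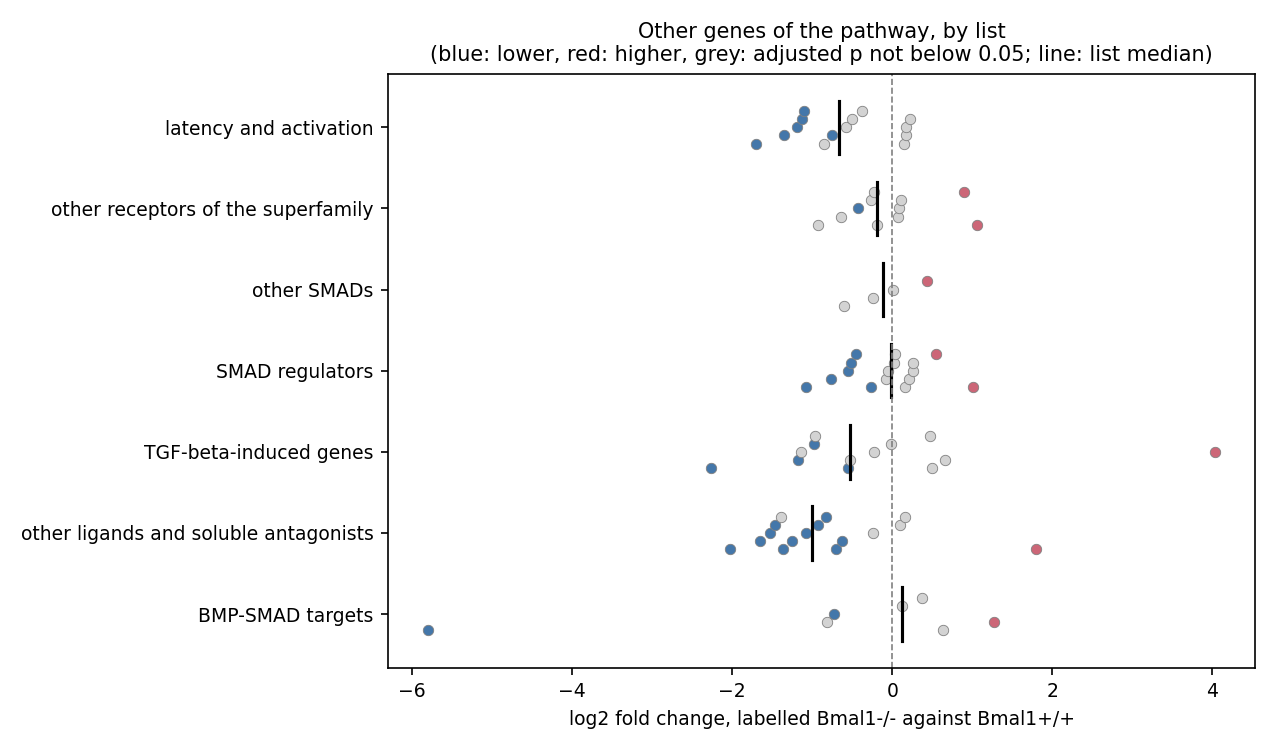
Log2 fold change of every tested gene in the 7 lists of other pathway genes, 1 row per list and 1 point per gene, in blue where lower, red where higher and grey where the adjusted p was not below 0.05, with the list median as a line. The list of other ligands and soluble antagonists lies furthest to the left, at a median of -1.0, and the TGF-β-induced list spans from Postn at -2.26 to Cdkn1a at 4.04.

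Genes of latency and activation hold the ligand inactive in the matrix or on cells and release it. Of 14 tested, 6 were lower and 0 were higher, a called share of 42.9% against 31.1% over all genes. Their median log2 fold change was -0.67. Ltbp4, a latent TGF-β binding protein of elastic matrix, was at 72.8 to 90.7 CPM in Bmal1+/+ libraries and 22.2 to 41.5 CPM in the others (log2 fold change -1.35, standard error 0.18, adjusted p = 6.4e-04). Ltbp1, another latent TGF-β binding protein, ranged from 2.06 to 3.01 against 0.500 to 1.39 CPM (log2 fold change -1.18, adjusted p = 0.018). Thbs1, thrombospondin-1, which can activate latent ligand, ranged from 1.34 to 2.95 against 0.0693 to 1.22 CPM (log2 fold change -1.70, adjusted p = 0.039). The call of Thbs1 was lost without any 1 of 5 libraries, Bmal1+/+ replicates 2 and 4 and replicates 1, 2 and 3 of the other group, with an adjusted p of up to 0.099, and that of Ltbp1 without Bmal1+/+ replicate 2 (adjusted p = 0.054). The remaining calls were Ltbp3, Lrrc32 (GARP, which tethers latent ligand to the cell surface) and Nrros, its relative in myeloid cells, all lower. The integrin genes of the list, Itgav, Itgb1, Itgb3, Itgb5 and Itgb8, did not pass the test, with log2 fold changes from -0.86 to 0.23.

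Of 11 tested genes of other receptors in the superfamily, 1 was lower, 2 were higher and 8 were not called, a called share of 27.3% against 31.1% over all genes. Eng, endoglin, an endothelial co-receptor, was at 75.3 to 83.5 CPM against 56.9 to 64.3 CPM (log2 fold change -0.42, standard error 0.09, adjusted p = 0.0061). Higher were Acvr1b, an activin type I receptor that signals through SMAD2 and SMAD3, at 8.84 to 13.5 against 18.3 to 23.5 CPM (log2 fold change 0.90, adjusted p = 0.0034), and Hjv, hemojuvelin, a BMP co-receptor for hepcidin control, at 33.9 to 98.6 against 128 to 144 CPM (log2 fold change 1.06, adjusted p = 0.012). Among the other SMAD genes, Smad1, a SMAD of the BMP branch, was higher at 12.3 to 15.7 against 17.5 to 24.6 CPM (log2 fold change 0.44, adjusted p = 0.041), and Smad5, Smad6 and Smad9 did not pass, with log2 fold changes of -0.24, 0.01 and -0.60. The call of Smad1 was lost without any 1 of the same 6 libraries as for Pmepa1 below (adjusted p of up to 0.11).

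SMAD regulators were lower in 6 of 16 tested and higher in 2, with a median log2 fold change of -0.02. Their called share was 50%, against 31.1% over all genes (16.2% lower and 14.9% higher). Ski, a repressor of SMAD-driven transcription, was at 44.1 to 62.5 against 26.7 to 36.3 CPM (log2 fold change -0.76, standard error 0.15, adjusted p = 0.0038). Zfyve9 (SARA), which brings SMAD2 and SMAD3 to the receptor, was at 30.1 to 37.2 against 20.9 to 26.1 CPM (log2 fold change -0.55, adjusted p = 0.0048). Pmepa1, a TGF-β-induced inhibitor of receptor-activated SMADs, was at 2.35 to 4.84 against 0.814 to 2.08 CPM (log2 fold change -1.08, adjusted p = 0.045). Its call was lost without any 1 of 6 libraries, the 4 Bmal1+/+ replicates and replicates 3 and 4 of the other group, with an adjusted p of up to 0.12. Higher were the ubiquitin ligase genes Nedd4l (32.7 to 52.1 against 76.9 to 97.5 CPM, log2 fold change 1.01, adjusted p = 8.4e-04) and Smurf1 (15.0 to 20.7 against 21.7 to 28.7 CPM, log2 fold change 0.55, adjusted p = 0.017), whose products can mark SMADs or receptors for degradation. The call of Smurf1 was lost without Bmal1+/+ replicate 4 (adjusted p = 0.051).

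TGF-β-induced genes were lower in 4 of 13 tested and higher in 1, with 8 not called and a median log2 fold change of -0.53. Their called share, 38.5%, was near the 31.1% over all genes. Postn, periostin, a matrix protein of activated fibroblasts, was at 7.52 to 13.4 against 1.35 to 2.85 CPM (log2 fold change -2.26, standard error 0.27, adjusted p = 2.9e-04). Tgfbi, a secreted matrix protein named for its induction by TGF-β, was at 34.7 to 47.8 against 19.5 to 24.8 CPM (log2 fold change -0.98, adjusted p = 6.2e-04), and Klf10, an early-response transcription factor, at 47.4 to 66.2 against 9.43 to 30.3 CPM (log2 fold change -1.18, adjusted p = 0.015). Cdkn1a, the cell cycle inhibitor p21, went the other way, at 6.11 to 21.9 against 135 to 313 CPM (log2 fold change 4.04, standard error 0.42, adjusted p = 1.2e-04), and it is also induced by p53 and other stimuli. The contractile genes Acta2 and Tagln and the matrix genes Fn1 and Col1a1 did not pass, with log2 fold changes of -1.14 (adjusted p = 0.051), -0.53, -0.23 and -0.01. Not all uncalled genes lay below 0, since 9 of the 13 tested had a negative log2 fold change. Ccn2, also not called, was at 5.06 to 19.0 against 15.9 to 28.0 CPM, and the groups overlapped. Fn1, fibronectin, was at 1658 to 2096 CPM in Bmal1+/+ libraries and at 963 to 1271 CPM in replicates 1 to 3 of the other group, below all of these, but at 2864 CPM in replicate 4, above all of them. Klf10 was lowest in that same replicate, at 9.43 CPM.

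Other ligands and soluble antagonists were the list with the largest called share, 11 lower and 1 higher of 16 tested. This was 75.0%, against 31.1% over all genes. Bmp7 was at 1.75 to 2.62 against 0.271 to 0.640 CPM (log2 fold change -2.03, standard error 0.30, adjusted p = 9e-04) and Bmp5 at 7.12 to 13.9 against 2.78 to 5.31 CPM (log2 fold change -1.53, adjusted p = 0.0023), both ligands of the BMP branch. Inhbb, the activin βB subunit, was at 7.18 to 22.3 against 3.53 to 5.87 CPM (log2 fold change -1.65, adjusted p = 0.0065). Fst, follistatin, which traps activins, was the 1 higher gene, at 0.806 to 1.61 against 1.8 to 6.33 CPM (log2 fold change 1.8, adjusted p = 0.0070). Of 7 BMP-SMAD targets, 2 were lower and 1 was higher, a called share of 42.9%. Hamp, hepcidin, a hepatocyte hormone of iron control, was at 614 to 842 against 358 to 535 CPM (log2 fold change -0.73, adjusted p = 0.011), and Hamp2, a near-identical paralog whose reads the counting could split, at 217 to 728 against 2.65 to 13.4 CPM (log2 fold change -5.80, adjusted p = 1.7e-04). Atoh8 was higher, at 9.81 to 13.4 against 21.2 to 34.7 CPM (log2 fold change 1.27, adjusted p = 4.9e-04), and Id1, Id2, Id3 and Id4 did not pass.

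Markers of several cell types moved with the ligands and the co-receptor. In bulk RNA, fewer cells of a type and less RNA per cell cannot be told apart. Of 8 macrophage markers 6 were lower and the list summed to 404 to 501 CPM in Bmal1+/+ libraries against 180 to 382 CPM (180 to 227 CPM without replicate 4), of 8 endothelial markers 6 were lower (327 to 380 against 228 to 311 CPM), of 8 tested fibroblast markers 4 were lower (43.5 to 72.8 against 31.5 to 34.8 CPM) and of 8 hepatic stellate cell markers 4 were lower (238 to 301 against 123 to 184 CPM). None of these 4 sums overlapped between the groups. Over all single genes tested, 16.2% were called lower and 14.9% higher, and 16.8% were lower with no overlap of CPM. As examples, the macrophage genes Adgre1 and Csf1r had log2 fold changes of -1.31 and -0.97, the fibroblast genes Col1a2 and Pdgfra -0.76 and -0.15, and the endothelial gene Cdh5 -0.74. The tested markers ranged from -1.55 to -0.16 for macrophages (median -1.22) and from -1.28 to -0.15 for fibroblasts (median -0.80). Endothelial markers ranged from -0.74 to -0.06 (median -0.50), so Cdh5 was at their lower end. The lymphocyte list summed to 23.8 to 29.1 against 6.90 to 16.6 CPM with 1 of 5 tested genes lower, and the list for platelets, which store TGF-β1, to 3.97 to 4.73 against 3.42 to 5.49 CPM with 0 of 2 lower. Epithelial and tumor cell markers summed to no more than 13.2 CPM in any library, with 3 of 3 tested genes lower. Of the 10 hepatocyte markers 1 was lower (Alb, log2 fold change -2.10) and 3 were higher, and their median log2 fold change was 0.05. The part of these cell types in the differences of Tgfb1, Tgfb3, Tgfbr3 and Smad3 was not tested.

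**Figure D5:**
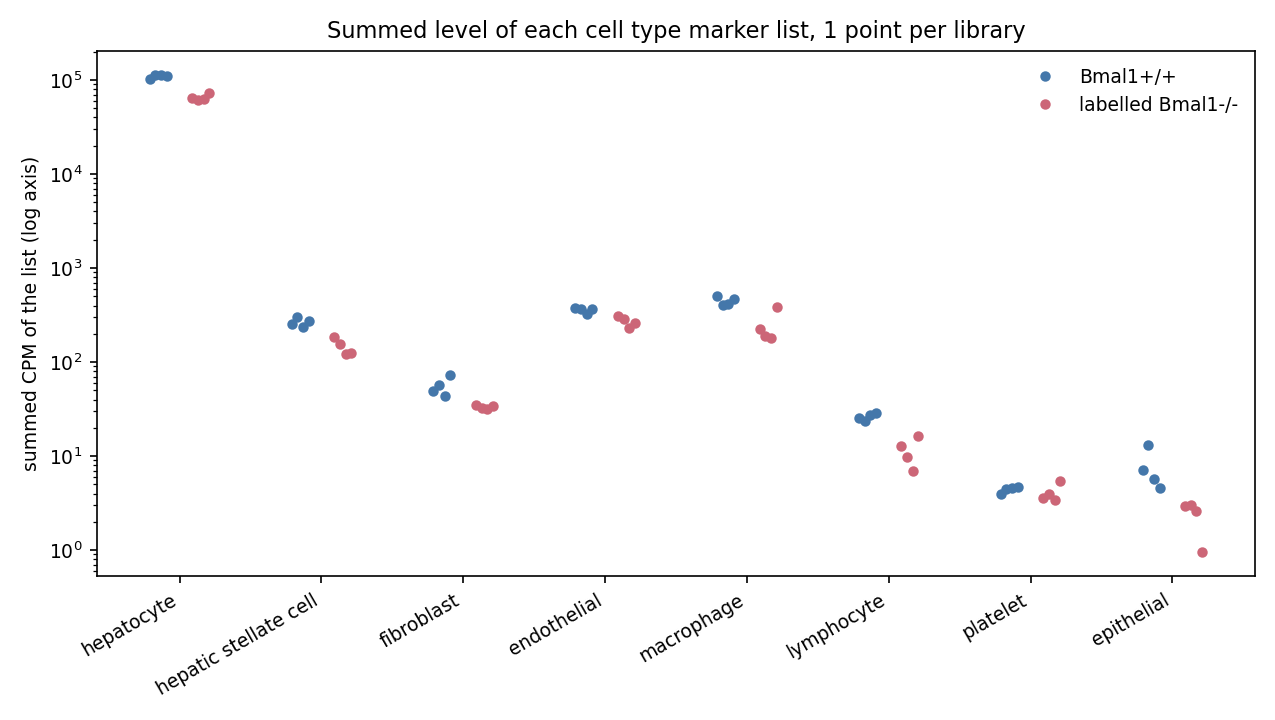
Summed CPM of each cell type marker list on a log axis, with 1 point per library in each group. Hepatocyte markers lie above 61941 CPM in every library, and the sums of macrophage, endothelial, fibroblast and hepatic stellate cell markers are lower in all 4 libraries labelled Bmal1-/- than in any Bmal1+/+ library.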

How the data were processed

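The authors sequenced RNA of the SVF in 8 libraries, mapped the paired-end reads to GRCm38 with HISAT2 and counted fragments per gene with StringTie. The sample labels name CASAVA 1.8 and TopHat2 2.0.6 instead. The counts were deposited unnormalized, and the authors also deposited FPKM, scaled to exon length and library size. Strand use is not stated. Groups were taken from the genotype labels. Replicate 4 of the libraries labelled Bmal1-/- was numbered from its description, while its title calls it KO6.

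Counts were filtered (filterByExpr), TMM-normalized and compared with the quasi-likelihood test of edgeR 4.0.16 in R 4.3.3 (prior count 0.125) over 14353 genes. Standard errors were derived from the fold change and its F statistic. GENCODE M21 gave symbols for 99.4% of 55487 identifiers. Alternatives used limma 3.58.1 and DESeq2 1.42.0, and figures used Python 3.11.15 and matplotlib 3.10.9. Nothing says that the libraries came from separate mice, so p-values measure the spread between libraries, which may be technical. Same-label libraries were no duplicates, with a chi-square per degree of freedom of 19.6 to 163 over 12 pairs. Intervals cover these libraries only.

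The members, gene lists and alternatives were chosen with earlier results of these data known. The named pathway genes were, in each list, up to 3 lower and up to 3 higher with the largest fold changes among called genes with a mean of 1 CPM or more over all libraries. Genes named beside these were chosen after their values were seen.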

Additional observations from a re-analysis of the deposited data

Results flagged for a closer look

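In each of the 10 members and each group of 4 libraries, the highest and lowest values were examined for a gap to the nearest other library that, as a share of the group's range, exceeded Dixon's 95% critical value for 4 samples. This holds by chance in about 1 of 20 groups, and it held in 2 of the 20 examined. Tgfbr1 in Bmal1+/+ replicate 1 was at 25.6 CPM, and the other Bmal1+/+ libraries were between 34.6 and 35.7 CPM. Without this library the log2 fold change of Tgfbr1 was -0.35 (adjusted p = 0.15 by edgeR's quasi-likelihood test). It moved further, to -0.40 (adjusted p = 0.063), without replicate 4 of the libraries labelled Bmal1-/-. Leaving out replicate 2 of that group moved it the other way, to -0.15 (adjusted p = 0.56), both by the same test. Smad2 in replicate 2 of the libraries labelled Bmal1-/- was at 20.7 CPM, and the other 3 were between 6.40 and 7.19 CPM.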

How the results depend on the processing

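Tgfb1, Tgfb3, Tgfbr3 and Smad3 kept their direction and an adjusted p below 0.05 under every alternative in which they were tested, including each library left out in turn. Their log2 fold changes ranged from -1.17 to -0.99, -2.40 to -1.72, -1.01 to -0.82 and 0.48 to 0.68, with an adjusted p of at most 0.046 for Smad3. Tgfb3 could not be tested with at least 10 counts in every library, which left 2 members lower. Members called lower numbered 3 and called higher 1 with each library left out. With the study's fold criterion 2 members were lower and 0 were higher, and of the other pathway genes 18 were lower and 5 higher, against 30 and 8. Of all tested genes, 8.71% were lower and 5.41% higher by that criterion. Leaving out 1 library gave 24 to 31 lower and 6 to 8 higher pathway genes. Smad2 turned to -0.088 with limma-voom, -0.084 with the replicate block and -0.036 with limma on log2(FPKM + 0.1), and ranged from -0.48 to 0.26 with 1 library left out. Smad7 ranged from -0.042 to 0.20, turning without Bmal1+/+ replicate 4 or replicate 1 of the other group. The cause was not tested. Without the filter on low counts Thbs1, Smad1 and Pmepa1 lost their calls (adjusted p = 0.069, 0.069 and 0.073 by edgeR's quasi-likelihood test). No pairing by replicate number was seen, with deviations of same-numbered libraries correlating between -0.108 and 0.057, which cannot exclude a pairing of small effect. The replicate block gave 2064 lower and 1809 higher genes against 2322 and 2135, kept 3 members lower and 1 higher, and lost the calls of Thbs1, Smad1, Pmepa1 and Smurf1. Pmepa1 also lost its call with library size only (adjusted p = 0.052 by the same test). Other scalings shifted the median of all genes by at most 0.027 (log2).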
